A study of Mus musculus with 19 samples.

Results

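The mitochondrial genome encodes 13 mRNAs, 2 rRNAs and 22 tRNAs, and all 37 were entries of the liver expression table, found as the gene names that start with mt-. They were 37 of 52110 named entries. All 37 passed the filter on low values, a mean of at least 1 FPKM over the 19 samples, and were among the 10577 entries tested. The samples were livers of wild-type mice in 4 groups. NC sham and NC RIC mice ate normal chow (NC), and CDAHFD sham and CDAHFD RIC mice ate a high-fat diet short of choline and made with defined L-amino acids, which produces nonalcoholic steatohepatitis. RIC is remote limb ischemic conditioning, in which blood flow to a limb is stopped and restored, and sham mice had a sham treatment. There were 5 samples each of NC sham, NC RIC and CDAHFD sham and 4 of CDAHFD RIC. The labels gave neither age, sex, time on diet nor a batch, and did not say that each sample came from a separate animal, so a p-value here measures sample spread, which may be technical.

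Mitochondrial DNA is a small circular genome present in many copies per cell. Both strands are transcribed into long precursors by the RNA polymerase Polrmt with its partners Tfam and Tfb2m, and the precursors are cut at the tRNAs that stand between most genes. The heavy strand gives both rRNAs, 12 of the mRNAs and 14 of the tRNAs, and the light strand gives mt-Nd6 and 8 tRNAs. The mRNAs encode subunits of respiratory complexes I, III, IV and V, whose other subunits come from the nucleus, and hepatocytes are rich in mitochondria. The rRNAs and tRNAs serve the translation of these mRNAs inside the organelle.

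Sequences are shown for some entries described below, with short stretches or overlaps marked, from the GENCODE transcripts of the mm10 assembly. The part of these stretches in the values was not tested. The first is the overlap of mt-Atp8 and mt-Atp6, which encode 2 subunits of ATP synthase and whose values differed, at chrM:7915-7981 on the plus strand, with the 43 shared bases in capitals.
mt-Atp8 and mt-Atp6: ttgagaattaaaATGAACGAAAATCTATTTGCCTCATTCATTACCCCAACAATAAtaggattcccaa
The next 3 are neighbouring tRNAs on the plus strand, of which the middle one was near 0 in most samples, at chrM:11546-11612, chrM:11613-11671 and chrM:11671-11741. Capitals mark the 1 base that mt-Ts2 and mt-Tl2 share.
mt-Th: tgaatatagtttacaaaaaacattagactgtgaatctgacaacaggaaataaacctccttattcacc
mt-Ts2: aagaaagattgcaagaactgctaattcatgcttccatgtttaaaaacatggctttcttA
mt-Tl2: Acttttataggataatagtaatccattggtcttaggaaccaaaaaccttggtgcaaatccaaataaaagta
The isoleucine tRNA mt-Ti had the largest fall after RIC and lies at chrM:3706-3774 on the plus strand. Capitals mark the 2 bases it shares with the end of mt-Nd1.
mt-Ti: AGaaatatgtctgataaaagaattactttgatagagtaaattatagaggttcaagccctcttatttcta
The last pair shows mt-Nd3 at chrM:9459-9481 and its near-identical nuclear copy Gm28438 at chr1:24613097-24613119 on the minus strand, with the base that differs (T3C, mt-Nd3 base first, counted from 1 at the start of the entry) in capitals.
mt-Nd3: atTaacctgtacactgttatctt
Gm28438: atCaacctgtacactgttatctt

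Depth, estimated from the values, ran from 15.9 to 26.4 M reads. The median difference of all 10577 tested entries was 0.45 between the diets in sham mice on the log2(FPKM + 1) scale, the scale of all differences below, and was -0.05 when samples were scaled by median ratios and -0.04 after quantile normalization. Diet differences are read against that shift. Hepatocyte markers summed to 41101 to 52104 FPKM for NC sham, 56249 to 67609 for NC RIC, 32875 to 39305 for CDAHFD sham and 34284 to 46241 for CDAHFD RIC. Such sums weigh the most abundant markers most. For RIC on chow, 7 of the 10 single differences were negative and 3 positive, with a median of -0.086. Only 1 marker was called higher there and 0 lower, beside 0.321% and 0.86% of all tested entries. Of 10 hepatocyte markers 7 were lower and 0 higher on CDAHFD in sham mice, and 10 of 11 macrophage markers were higher, with sums of 51.5 to 69.99 FPKM for NC sham and 496.7 to 711.0 for CDAHFD sham (394.2 to 768.9 for CDAHFD RIC). All 6 tested stellate cell markers were higher too. Of all tested entries, 63.9% were higher and 10.3% lower on CDAHFD in sham mice. In these bulk samples fewer cells of a type and less RNA per cell cannot be told apart, and the part of these cell markers in the results was not tested. An earlier analysis of these data placed CDAHFD sham samples 2 and 5 apart from their group.

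In chow-fed sham livers the mitochondrial entries held 23.5% ± 1.15 (SD, n = 5) of the FPKM of all named entries, and the 13 mRNAs alone held 21.6%, from 20.6% to 22.97% by sample. Near-identical copies on chromosome 1, described below, held another 9.70% to 11.1% by sample. The absolute levels of mRNAs with such a copy, mt-Atp6 among them, are therefore uncertain. By FPKM, which is per length, mt-Co1 (a catalytic subunit of complex IV, cytochrome oxidase) stood highest at 23610 ± 2028, followed by mt-Cytb (the cytochrome b of complex III) at 13690 ± 1446. Then came mt-Atp8, mt-Nd2 and mt-Co3 at 10637 ± 1060, 10233 ± 659 and 9818 ± 594, which did not differ beyond their spread. The complex I subunit mt-Nd4 stood at 7767 ± 831. The complex IV subunit mt-Co2 at 6106 ± 371 and the complex I subunit mt-Nd1 at 5747 ± 348 lay within an SD of each other. The lower levels were those of mt-Nd6, mt-Nd4l, mt-Nd5, mt-Nd3 and mt-Atp6, from 4980 ± 191 down to 2090 ± 144. The rRNAs, at 1130 ± 109 and 1053 ± 169 FPKM, lay below every mRNA, and the tRNAs ran from 0.324 FPKM or less for mt-Ts2 in 4 of the 5 samples to 2784 ± 132 for mt-Te.

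The first comparison asked how CDAHFD feeding differs from chow in sham mice. Both rRNAs, 14 of 22 tRNAs and 6 of 13 mRNAs were lower on CDAHFD, and 3 mRNAs (mt-Atp6, mt-Nd1 and mt-Co2) were higher. By limma, with Benjamini-Hochberg adjustment over all tested entries and a threshold of 0.05, 25 of 37 entries passed, 3 higher and 22 lower. Of all tested entries 74.2% passed, 63.9% as higher and 10.3% as lower. The samples of both groups lay fully apart for 2 higher and 18 lower entries, beside 52.4% and 6.91% of all entries. Median-ratio scaling gave 1 higher and 33 lower, mt-Atp6 being the 1 that stayed higher.

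The mitochondrial rRNAs fell by a similar factor. mt-Rnr1, the RNA of the small ribosomal subunit, measured 1261, 1059, 984, 1175 and 1171 FPKM in NC sham and 745, 388, 489, 639 and 401 in CDAHFD sham. Every CDAHFD value lay below every chow value. The group means were 1130 ± 109 and 532 ± 155, a 2.12-fold lower level (log2 difference -1.13 ± 0.21 SE, adjusted p = 8.8e-05). mt-Rnr2, the RNA of the large subunit, stood at 1157, 912, 896, 1291 and 1007 in NC sham and at 673, 328, 435, 613 and 409 in CDAHFD sham. Those groups did not overlap either (2.14-fold, -1.13 ± 0.21, adjusted p = 6.6e-05). Both falls kept their call with every scaling, filter and left-out sample tried, and the median of the 2 differences ran from -1.79 to -0.70 over the scalings. The labels name no poly(A) or rRNA selection step, and the part of such a step in these falls was not tested.

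**Figure D1:**
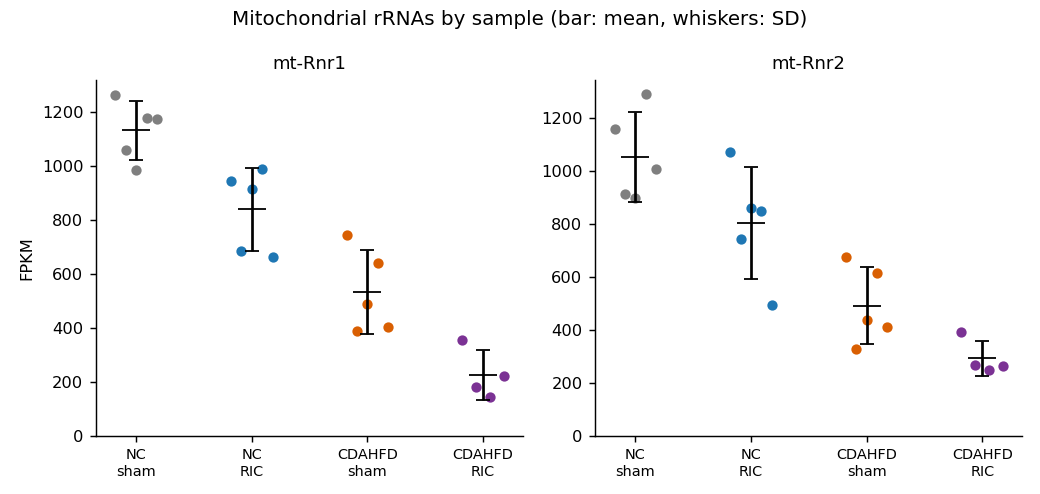
FPKM (linear axis from 0) of the small-subunit rRNA mt-Rnr1 and the large-subunit rRNA mt-Rnr2 in each of the 19 samples, by group. Points are samples, bars are means and whiskers SD. The mt-Rnr1 means step down from 1130 to 838, 532 and 225 FPKM in the order chow sham, chow RIC, CDAHFD sham, CDAHFD RIC.

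Among the mRNAs the 6 that fell on CDAHFD did so by 0.24 to 0.45. They were the complex I subunits mt-Nd4l (-0.45 ± 0.11, adjusted p = 0.00077), mt-Nd5 (-0.34), mt-Nd2 (-0.33) and mt-Nd3 (-0.24) and the complex IV subunits mt-Co3 (-0.36) and mt-Co1 (-0.31). The mt-Nd3 call was lost in 14 of 32 alternatives: without NC sham 1, 3, 4 or 5, without CDAHFD sham 2, 3 or 5 or without 2 and 5 together, with no filter, with array weights, with either common sum, with quantile normalization and with only the groups compared. Quantile normalization also ended the calls of mt-Nd4l, mt-Nd5, mt-Co3 and mt-Co1, and the last was lost with no filter too. Quantile normalization gives the entry ranked highest the same value in every sample. It left mt-Co1 without any difference between these groups, so it could not test that call. mt-Nd4, mt-Nd6, mt-Cytb and mt-Atp8 did not pass, with differences of -0.18, -0.17, -0.18 and -0.05. The median over the 13 mRNAs was -0.18, against 0.45 over all tested entries.

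A pair of subunits moved the other way as the values were deposited. mt-Nd1 measured 5585, 5572, 5476, 6342 and 5762 FPKM in NC sham and 9272, 6384, 8455, 8082 and 7312 in CDAHFD sham. The groups did not overlap, and the difference was 0.45 ± 0.09 (adjusted p = 0.00026), but with median-ratio scaling it was -0.21. mt-Co2 stood at 6106 ± 371 against 7520 ± 1175 FPKM with overlapping groups (0.29 ± 0.10, adjusted p = 0.012), and at -0.37 with median-ratio scaling. Within each sample, which no scaling touches, mt-Nd1 was 0.562 ± 0.0154 of its downstream neighbour mt-Nd2 in NC sham and 0.966 ± 0.0413 in CDAHFD sham. The ratio ran from 0.552 to 0.589 in the first group and from 0.911 to 1.01 in the second.

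mt-Atp6, the membrane subunit of ATP synthase that forms the proton channel, had the largest difference of the 37. It measured 1976, 1976, 2285, 2203 and 2011 FPKM for NC sham and 1975, 1858, 1739, 1873 and 1988 for NC RIC. On CDAHFD it measured 13573, 9681, 12789, 13309 and 10878 in sham mice and 9664, 8181, 9651 and 9508 in RIC mice. All 9 CDAHFD samples stood above all 10 chow samples. The level was 5.76-fold higher in sham mice (log2 difference 2.52 ± 0.09, adjusted p = 4.6e-14) and 4.9-fold higher in RIC mice (2.29 ± 0.10, adjusted p = 7.7e-13), and both calls held in every alternative.

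Other entries of the same stretch of the genome did not follow it. Gm10925, a nuclear copy on chromosome 1 (24613974 to 24614651, minus strand), is identical to mt-Atp6 over 678 of its 681 bases. It stood at 11585 ± 819 FPKM in NC sham and 12754 ± 1756 in CDAHFD sham (0.13 ± 0.09, adjusted p = 0.21). mt-Atp8, which overlaps mt-Atp6, stood at 10637 ± 1060 and 10256 ± 926, and mt-Co3, which follows it, was lower on CDAHFD. The ratio of mt-Atp6 to Gm10925 lay between 0.177 and 0.182 in all 10 chow samples and between 0.932 and 0.948 in all 9 CDAHFD samples. For the pairs mt-Co2 and Gm28661, mt-Co3 and Gm28437, and mt-Nd4l and Gm10222, identical over their aligned length, the ratio stayed between 0.988 and 0.999 in all 19 samples. Reads of identical copies cannot be told apart, and why this pair differed by diet was not tested. The labels name no strain or supplier for the mice of either diet and do not say whether reads of both diets were processed together. A difference in either cannot be told apart from the diet, so the mt-Atp6 values are those of the deposited entry only. Without mt-Atp6, a choice made after its values were seen, the mRNA share of FPKM was 21.2% ± 1.16 for NC sham, 22.8% ± 0.874 for NC RIC, 19.7% ± 1.11 for CDAHFD sham and 18.6% ± 1.05 for CDAHFD RIC.

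**Figure D2:**
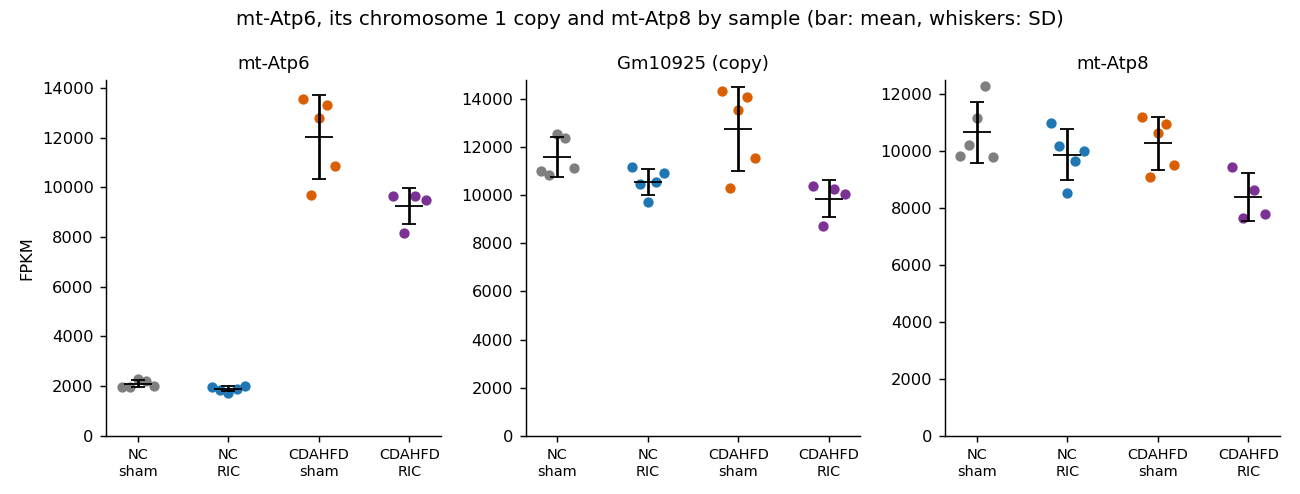
FPKM (linear axes from 0) of mt-Atp6, its nuclear copy Gm10925 and the overlapping mt-Atp8 in each sample, by group. Points are samples, bars are means and whiskers SD. mt-Atp6 lies between 1739 and 2285 FPKM in chow samples and between 8181 and 13573 in CDAHFD samples, while the CDAHFD sham and NC sham samples overlap for the other entries.

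The tRNAs were lower on CDAHFD over both strands. Of the 8 light-strand tRNAs 7 were lower (median -0.96) and of the 14 heavy-strand tRNAs 7 were lower (median -0.52), and none was higher. Of all tested entries 10.3% were lower and 63.9% higher. The labels name no selection step for the libraries. Whether reads of such short entries came from mature tRNAs or from precursors was not tested. The 4 light-strand tRNAs that sit between mt-Nd2 and mt-Co1, for alanine, asparagine, cysteine and tyrosine (mt-Ta, mt-Tn, mt-Tc and mt-Ty), fell by 1.25 to 1.32. mt-Ty measured 569, 300, 280, 377 and 284 FPKM in NC sham and 212, 122, 127, 154 and 130 in CDAHFD sham. The groups did not overlap for any of the 4, and sample 1 of NC sham was the highest for each. The tryptophan tRNA mt-Tw, the heavy-strand member of the same cluster, stood at 45.5 ± 10.5 and 39.3 ± 11.3 (-0.22, adjusted p = 0.52).

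The valine tRNA mt-Tv, which lies between the rRNAs, went from 12.7 ± 2.03 to 4.59 ± 1.57 FPKM (-1.32 ± 0.23, adjusted p = 3.7e-05). mt-Tf, the phenylalanine tRNA at the start of the rRNA precursor, went from 2.87 ± 0.359 to 0.979 ± 0.664 (-1.02 ± 0.22). That difference rests on few reads, since 1 read in 59 bases was worth an estimated 0.641 to 1.06 FPKM and mt-Tf has 68 bases. mt-Tl1, the leucine tRNA after mt-Rnr2, went from 487.9 ± 109.5 to 266.7 ± 50.8 (-0.86 ± 0.29), a call that ended without CDAHFD sham 2 and 5. The glutamate tRNA mt-Te, beside mt-Nd6 on the light strand and the most abundant tRNA entry, went from 2784 ± 132 to 1954 ± 194 (-0.51 ± 0.09, adjusted p = 6.0e-05), and its ratio to mt-Nd6 from 0.559 ± 0.0161 to 0.442 ± 0.0282. mt-Ts1, mt-Th, mt-Tr and mt-Tg lay at 0.044, -0.041, -0.19 and -0.34 and did not pass. The tRNA call counts were 14 lower under the common sum and quantile settings and 20 under median-ratio scaling, with 0 higher in each.

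**Figure D3:**
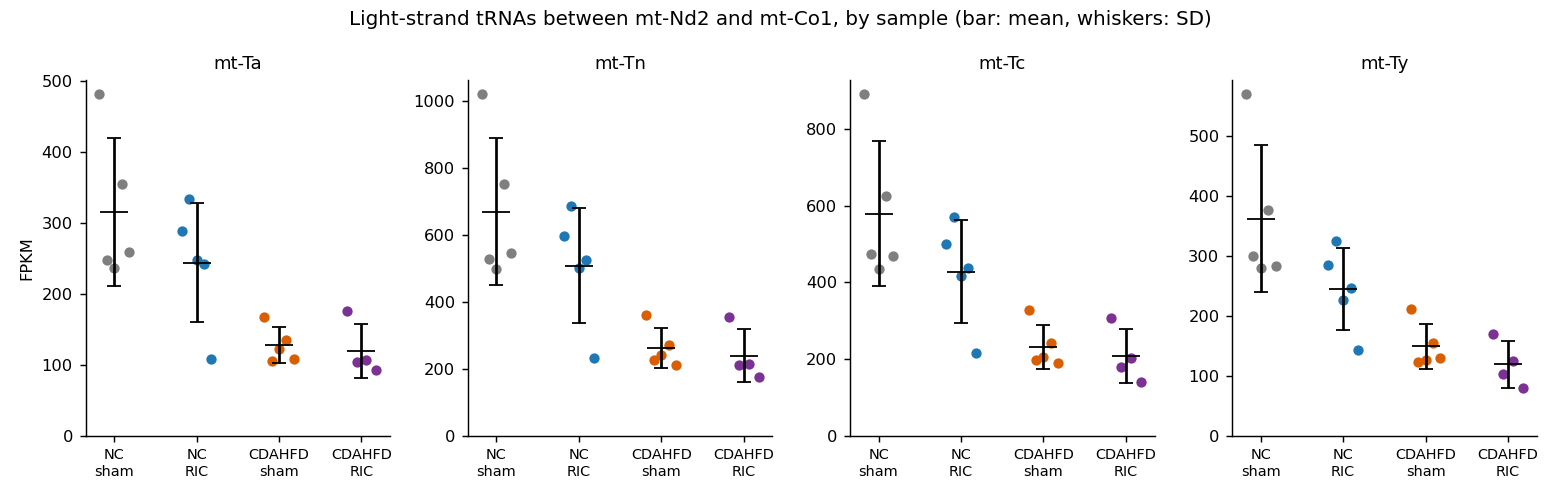
FPKM (linear axes from 0) of mt-Ta, mt-Tn, mt-Tc and mt-Ty in each sample, by group. Points are samples, bars are means and whiskers SD. In all 4 the CDAHFD sham samples lie below the NC sham samples, with mt-Ty means of 361.9 and 149.0 FPKM.

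mt-Ts2, the serine tRNA printed above, was 0.190 to 0.364 FPKM in 16 of the 19 samples. By the depth estimate 1 read in its 59 bases was worth 0.641 to 1.06 FPKM. Whole reads cannot give values above 0 but below 1 read, so the worth of 1 read is uncertain, and the reason was not tested. mt-Ts2 stood at 164, 149 and 103 FPKM in NC sham 4, CDAHFD sham 3 and CDAHFD RIC 2. Its neighbours showed no such step: in those samples mt-Th stood at 99.9, 139 and 98.5 FPKM and mt-Tl2 at 162, 149 and 91.9. No difference of mt-Ts2 passed, and its SE of 1.51 or more made none detectable.

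The second comparison asked what RIC does to the mitochondrial transcripts in CDAHFD livers. The rRNAs fell further, mt-Ti was 4.50-fold lower, and 5 mRNAs fell by 0.30 to 0.55. In all, 14 of 37 entries passed, 13 lower and 1 higher, beside 27.3% of all tested entries (18.6% lower and 8.72% higher). The groups lay fully apart for 4 lower and 0 higher entries, beside 13.1% and 5.26% of all entries. The median was -0.24 for the mRNAs, -0.997 for the rRNAs and -0.34 for the tRNAs, against -0.08 over all entries. The count depended on single samples: it was 8 without CDAHFD sham 1, 9 without sham 3 or 4, 8 without CDAHFD RIC 2 and 7 without RIC 3, and 18 without sham 2 and 5. It was 8 lower and 2 higher with a common sum, 4 lower and 1 higher with median-ratio scaling and 8 lower and 3 higher with quantile normalization.

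mt-Rnr1 stood at 354, 179, 144 and 223 FPKM in CDAHFD RIC, each below the lowest CDAHFD sham sample at 388. The mean of 225 ± 91.6 was 2.36-fold below sham (-1.27 ± 0.22, adjusted p = 0.00074). mt-Rnr2 stood at 390, 268, 249 and 262, where sample 1 overlapped the sham range (-0.72 ± 0.22, adjusted p = 0.021). Its call was lost in 6 of 32 alternatives, among them those without CDAHFD sham 1 or 4 or CDAHFD RIC 2 or 3 and median-ratio scaling. The ratio of mt-Rnr1 to mt-Rnr2 was 1.09 ± 0.103, 1.07 ± 0.188 and 1.09 ± 0.0781 in the 3 other groups and 0.752 ± 0.153 in CDAHFD RIC. RNAs encoded in the nucleus that carry no poly(A) tail were looked at after the data were seen, since the labels name no poly(A) or rRNA selection step. They are given here for RIC on CDAHFD only. Rn7s1, an RNA of the signal recognition particle, stood at 13.4 ± 5.75 FPKM in CDAHFD sham and 5.12 ± 1.14 in CDAHFD RIC (adjusted p = 0.065), and Rn7s2, Rn7sk and Rpph1 also did not pass (adjusted p = 0.087, 0.44 and 0.28). Their part in the rRNA result was not tested.

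mt-Ti measured 167, 61.3, 88.0, 112 and 77.9 FPKM in CDAHFD sham and 41.6, 13.7, 11.8 and 22.8 in CDAHFD RIC. The groups did not overlap, and the 4.50-fold fall (SE 0.31 on the log2 scale, adjusted p = 1.04e-04) passed in every alternative, with log2 differences from -2.55 to -1.97. Against the mRNA it adjoins, mt-Ti was 1.25% ± 0.348 of mt-Nd1 in CDAHFD sham and 0.342% ± 0.218 in CDAHFD RIC, after 2.85% ± 0.622 in NC sham and 1.29% ± 0.27 in NC RIC. The glutamine tRNA mt-Tq and the methionine tRNA mt-Tm, which follow it, each fell by 0.73 (adjusted p = 0.015 and 0.034). In both, CDAHFD RIC sample 1 stood apart at 48.1 and 199 FPKM, beside 19.2 to 21.5 and 61.3 to 77.2 in the other 3. mt-Tr, mt-Th and mt-Tp, for arginine, histidine and proline, fell by 0.81, 0.70 and 0.42 (adjusted p = 0.0053, 0.028 and 0.024). The mt-Tr call held in every alternative, and those of mt-Tq, mt-Tp, mt-Tm and mt-Th were lost in 4, 9, 12 and 13 of 32.

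One tRNA went up. mt-Tw measured 54.7, 28.4, 41.1, 44.3 and 28.1 FPKM in CDAHFD sham and 105, 58.3, 81.6 and 51.8 in CDAHFD RIC, with overlap (0.89 ± 0.33, adjusted p = 0.0496). The call was lost in 19 of 32 alternatives, among them leaving out CDAHFD sham 2, 3, 4 or 5 or CDAHFD RIC 1, 2 or 3. mt-Tl1 stood at 266.7 ± 50.8 and 355.2 ± 43.4 (0.43, adjusted p = 0.31), so that its ratio to mt-Rnr2, which it follows, was 0.557 ± 0.0642 in CDAHFD sham and 1.27 ± 0.339 in CDAHFD RIC.

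Of the mRNAs, mt-Nd3 fell most. It stood at 2672, 1903, 2438, 2816 and 2219 FPKM in CDAHFD sham and 1785, 1385, 1584 and 1798 in CDAHFD RIC, with no overlap (-0.55 ± 0.11, adjusted p = 0.0016). mt-Co2 and mt-Atp6 fell by 0.37 each (adjusted p = 0.013 and 0.010), mt-Cytb by 0.31 and mt-Atp8 by 0.30. The calls of mt-Cytb and mt-Atp8 were each lost in 12 of 32 alternatives, without CDAHFD sham 1, 3 or 4 and without CDAHFD RIC 2 or 4 for both, RIC 1 for mt-Cytb and RIC 3 for mt-Atp8, and mt-Cytb was at 0.039 under quantile normalization. mt-Co2 and mt-Atp6 lost theirs under median-ratio and quantile scaling and with only the groups compared, and mt-Co2 with no filter as well. mt-Nd1 (-0.25), mt-Nd4 (-0.24), mt-Co3 (-0.24) and mt-Nd2 (-0.23) did not pass, and mt-Nd5, mt-Nd6, mt-Co1 and mt-Nd4l lay between -0.05 and 0.09.

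**Figure D4:**
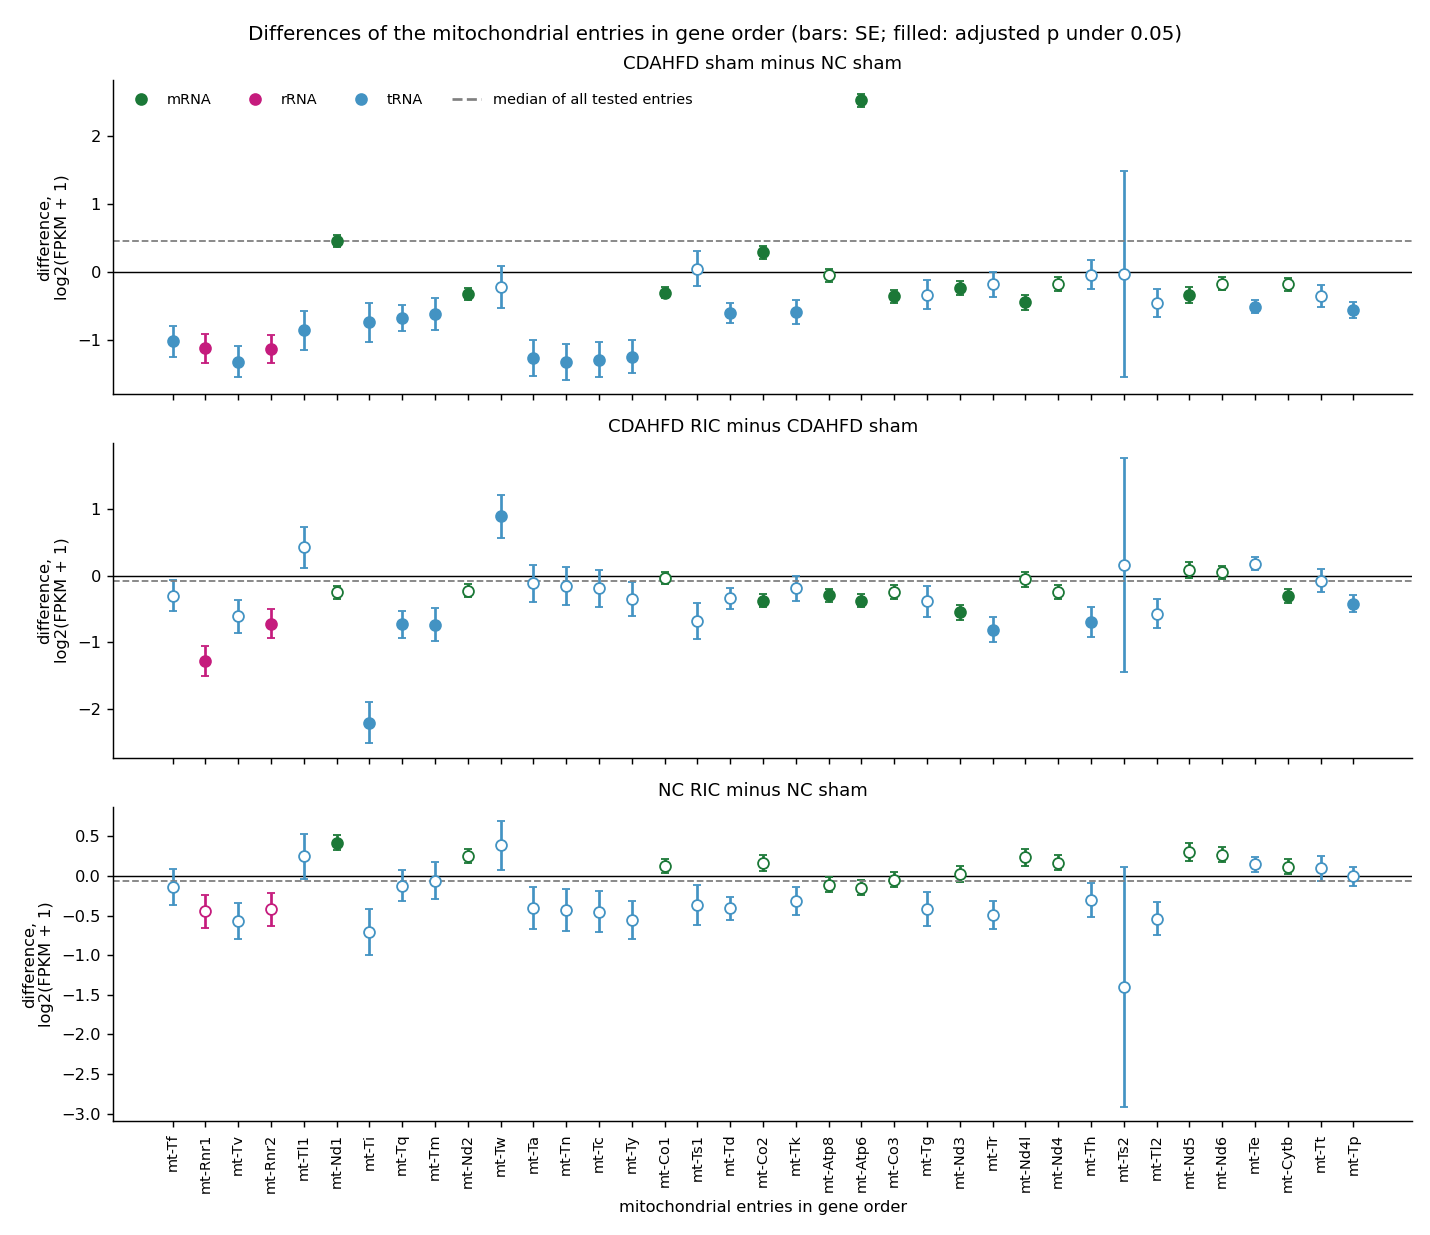
Difference on the log2(FPKM + 1) scale (y axis) of the 37 mitochondrial entries in gene order (x axis) for CDAHFD against chow in sham mice, RIC against sham on CDAHFD and RIC against sham on chow. Points are estimates, bars SE, filled points passed, colours give the RNA class and the dashed line is the median of all tested entries (0.45, -0.08 and -0.06).

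The third comparison was RIC against sham in chow-fed mice. Only mt-Nd1 passed of the 37, as higher, beside 1.18% of all tested entries (0.321% higher and 0.86% lower). It measured 7292, 8025, 7773, 7990 and 7367 FPKM in NC RIC against 5476 to 6342 in NC sham, with no overlap (0.42 ± 0.09, adjusted p = 0.040). The call ended in 11 of 32 alternatives, on leaving out NC sham 1, 2, 3 or 5, NC RIC 2, 3, 4 or 5 or CDAHFD sham 3 or 4, and with no filter, with adjusted p up to 0.21. mt-Co2 and mt-Nd6 were also higher in every NC RIC sample than in any NC sham sample, where 0.993% of all entries did so (3.75% were lower in the same way), at 0.16 and 0.27 (adjusted p = 0.42 and 0.14). The rRNAs stood at 838 ± 153 and 803 ± 210 FPKM against 1130 and 1053 (-0.45 and -0.42, adjusted p = 0.30 and 0.32).

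Whether RIC acts differently on the 2 diets was tested by the interaction, the difference on CDAHFD minus that on chow. It passed for 5 of 37 entries, all negative, beside 6.72% of all entries (3.59% positive and 3.13% negative). mt-Nd1 was at -0.67 ± 0.14 (adjusted p = 0.0077), going from 0.42 on chow to -0.25 on CDAHFD. mt-Nd2 was at -0.48 (adjusted p = 0.034), mt-Co2 at -0.53 (0.031), mt-Nd3 at -0.58 (0.026) and mt-Ti at -1.49 (0.040). All 13 mRNAs had a negative interaction, with a median of -0.29, but with quantile normalization mt-Atp8 (0.17), mt-Nd5 (0.14), mt-Atp6 (0.07), mt-Cytb (0.07) and mt-Nd4 (0.0033) were positive and the median was -0.0026. The median of all tested entries was -0.03. The count was 1 without NC sham 2 or CDAHFD RIC 2, 2 without NC sham 5 or CDAHFD sham 3, 3 without NC sham 3 or CDAHFD RIC 3, and 8 without CDAHFD RIC 1. It was 10 without CDAHFD sham 2 and 5 and 1 with median-ratio scaling. The mt-Nd1 interaction passed in all but the alternative with no filter. For the rRNAs the interaction did not pass (-0.83 and -0.30, adjusted p = 0.11 and 0.58).

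**Figure D5:**
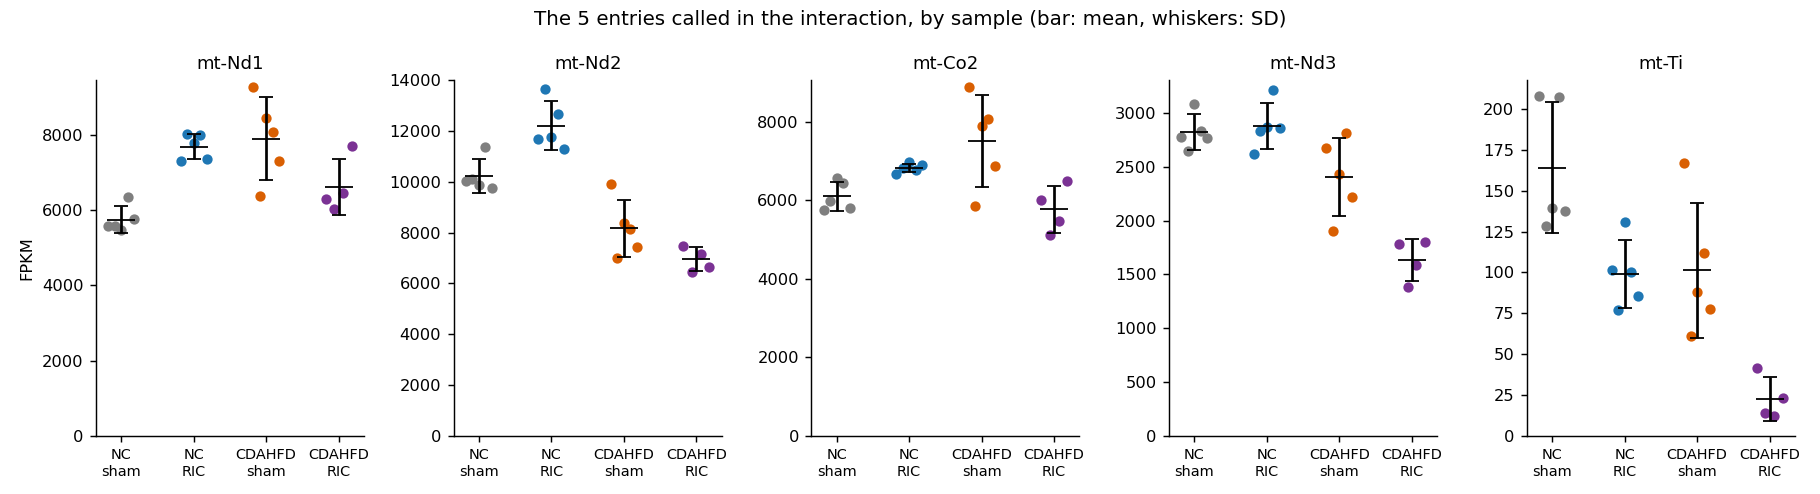
FPKM (linear axes from 0) of the 5 entries whose interaction of diet and RIC passed, in each sample by group. Points are samples, bars are means and whiskers SD. mt-Nd1 means are 5747 and 7689 FPKM in NC sham and NC RIC and 7901 and 6615 in CDAHFD sham and CDAHFD RIC.

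The diets were also compared within RIC mice. There 29 of 37 entries passed, 28 lower and 1 higher (mt-Atp6), beside 70.3% of all entries (6.68% lower and 63.6% higher). The groups lay fully apart for 20 lower and 1 higher entries, beside 4.63% and 53.3% of all entries. This comparison shares no sample with the comparison in sham mice, but the tests of both use a spread estimated from all 19 samples. Both rRNAs were lower, mt-Rnr1 by 1.95 ± 0.22 (3.72-fold) and mt-Rnr2 by 1.44 ± 0.22. mt-Ti was lower by 2.24 ± 0.31 (4.4-fold). Of the mRNAs 11 were lower, mt-Nd3 by 0.82, mt-Nd2 by 0.81, mt-Nd4l by 0.74 and mt-Cytb by 0.61 the most. mt-Nd1 did not pass (-0.22, adjusted p = 0.053). The mRNA median was -0.56 against 0.42 over all entries. Quantile normalization turned mt-Co2, mt-Atp8 and mt-Nd6 from lower to 0.22, 0.14 and 0.077 and mt-Nd1 to 0.25.

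Ratios within a sample, free of scaling between samples, showed how the classes stood to each other. They can still depend on how RNA was selected for the libraries, which the labels do not name. The mean log2 level of the rRNAs over that of the mRNAs without mt-Atp6 was -2.76 ± 0.193 for NC sham, -3.35 ± 0.316 for NC RIC, -3.73 ± 0.293 for CDAHFD sham and -4.53 ± 0.379 for CDAHFD RIC. NC sham samples (lowest -3.04) did not overlap CDAHFD sham samples (highest -3.35), and CDAHFD RIC samples (highest -4.05) lay below CDAHFD sham samples (lowest -3.98). The light-strand mRNA mt-Nd6 against the heavy-strand mRNAs, again without mt-Atp6, lay at -0.61 ± 0.118 and -0.62 ± 0.102 in the sham groups. It lay at -0.49 ± 0.0853 in NC RIC and at -0.34 ± 0.0983 in CDAHFD RIC. As shares of FPKM, rRNAs were 0.445% ± 0.0521, 0.327% ± 0.0689, 0.216% ± 0.0538 and 0.119% ± 0.0342 in the order chow sham, chow RIC, CDAHFD sham, CDAHFD RIC. The tRNA shares in that order were 1.42% ± 0.194, 1.32% ± 0.212, 0.911% ± 0.101 and 0.953% ± 0.0928.

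Besides mt-Atp6, 6 of the mRNAs had a copy of at least 99% identity in a block of chromosome 1 (24611535 to 24616197, minus strand). The 7 copy entries held 10.2% ± 0.613 of FPKM in NC sham and 8.81% ± 0.533 in CDAHFD RIC. Apart from Gm10925, copies identical over nearly the whole mitochondrial entry followed it between the diets in sham mice. Gm28661 was at 0.29 as mt-Co2 was, Gm28437 at -0.36 as mt-Co3 was and Gm10222 at -0.45 as mt-Nd4l was. Reads of identical copies cannot be told apart, so these equal differences say nothing separate about the copies. Gm28438 was at -0.23 with mt-Nd3 at -0.24. The shorter copies Gm29216 and Gm28439, which match 31.3% of mt-Co1 and 63.6% of mt-Nd4, lay at -0.13 and -0.31 beside -0.31 and -0.18. How the counting shared reads among copies is not given in the sources used here. The absolute levels of these 7 mRNAs are uncertain. The strand setting is not given either. Reads where mt-Nd5 and mt-Nd6, mt-Ti and mt-Tq, or mt-Co1 and mt-Ts1 overlap on opposite strands cannot be told apart.

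Nuclear genes of mitochondrial function were read from lists. Of 8 tested transcription factors of mitochondrial DNA, 3 were higher and 2 lower on CDAHFD in sham mice, beside 63.9% and 10.3% of all entries, and 0 higher and 5 lower with median-ratio scaling. Tfb2m, which melts the promoter for the polymerase, fell from 14.04 ± 0.95 to 10.6 ± 0.85 FPKM (-0.37, adjusted p = 0.0012) and was lower in every scaling. Mrpl12, a ribosomal protein that also binds the polymerase, rose by 0.57 and Polrmt by 0.27, but with median-ratio scaling both differences were negative, as was Polrmt with quantile normalization. Mterf2 rose by 0.70, a call that ended with both of those scalings, and Mterf4 fell by 0.18, while Tfam, Tefm and Mterf3 lay at -0.045, 0.066 and -0.091 and did not pass.

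After RIC on CDAHFD, 2 of the 8 were higher and 0 lower. Tfb2m measured 9.44, 11.6, 10.1, 11.1 and 11.05 FPKM in CDAHFD sham and 15.4, 14.1, 14.7 and 13.9 in CDAHFD RIC, with no overlap (0.42, adjusted p = 0.0051; interaction 0.55, adjusted p = 0.020). Tfam, which packages mitochondrial DNA and is a partner of Polrmt, rose from 10.6 ± 1.3 to 13.01 ± 0.8 (0.28, adjusted p = 0.023). Tfam lost its call without CDAHFD sham 1 or 4 or CDAHFD RIC 2 or 3 and with only the groups compared. Of 8 tested regulators of mitochondrial biogenesis 4 were higher and 2 lower, and of all entries 8.72% were higher and 18.6% lower. Ppargc1a, the coactivator PGC-1alpha, stood at 1.87, 2.77, 2.76, 3.61 and 2.42 FPKM in CDAHFD sham and 3.71, 9.64, 6.88 and 8.14 in CDAHFD RIC. Its groups did not overlap (1.09, adjusted p = 0.0017), and its interaction was 1.36 (adjusted p = 0.012). The mitochondrial deacetylase Sirt3 rose by 0.41 and the transcription factor subunit Gabpa by 0.42, after falls of 0.52 and 0.34 on CDAHFD, and the coactivator Pprc1 fell by 0.45. These 4 regulators and Tfb2m kept their RIC calls in every alternative.

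The nuclear subunits of complexes I to V numbered 78 tested. In sham mice 46 were higher and 2 lower on CDAHFD, beside 63.9% and 10.3% of all entries (median 0.30, below the 0.45 of all entries), but median-ratio scaling gave 1 higher and 50 lower and quantile normalization 22 and 12. Ndufa8, an accessory subunit of complex I, went from 46.9 ± 4.8 to 92.4 ± 12.7 FPKM (0.96, adjusted p = 1.6e-08) and was higher in every scaling. After RIC on CDAHFD 4 were higher and 29 lower (median -0.24), beside 8.72% and 18.6% of all entries, and 6 and 8 with median-ratio scaling. Of 36 complex I subunits 17 fell, among them Ndufa8 (-0.49) and Ndufab1 (-0.49), and the iron-sulfur subunit Ndufs1 rose by 0.62 (adjusted p = 0.0036). Cox4i1 of complex IV fell by 0.67 and Atp5e of complex V by 0.58. The list for mitochondrial content held 18 genes, among them the proteases Lonp1 and Clpp and the chaperone Hspe1. The amount of mitochondria was not measured. Of these 18 genes 16 were higher and 0 lower on CDAHFD and 0 higher and 5 lower after RIC. With median-ratio scaling these counts were 4 and 7, and 2 and 3. Citrate synthase (Cs) went from 9.95 ± 1.73 to 25.4 ± 3.2 on CDAHFD (1.28) and to 16.6 ± 0.789 after RIC (-0.58).

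The remaining nuclear lists hold genes that process mitochondrial RNA, maintain mitochondrial DNA or serve its translation. Their counts stand beside 63.9% of all entries higher and 10.3% lower on CDAHFD, and 8.72% higher and 18.6% lower after RIC on CDAHFD, and nothing about the lists is read from them. Of 37 tested RNA processing genes 23 were higher and 1 lower, which became 4 and 14 with median-ratio scaling. The pseudouridine synthase Pus1, which modifies tRNAs, rose by 0.94 and the RNA-binding protein Tbrg4 by 0.81, both in every scaling. After RIC on CDAHFD 2 were higher and 7 lower, against 5 and 2 with median-ratio scaling. Pus1 fell by 0.40, a call lost with a common sum, and the methyltransferase Mrm3, which acts on mt-Rnr2, by 0.48, a call lost with median-ratio scaling. Of 21 maintenance genes 12 were higher and 2 lower on CDAHFD, and 3 and 10 with median-ratio scaling. The adenine nucleotide carrier Slc25a4 went from 1.07 ± 0.279 to 9.86 ± 1.83 FPKM (2.39), and the thymidine phosphorylase Tymp fell by 1.64. Of 12 translation factors 7 were higher and 2 lower on CDAHFD, and 3 and 6 with median-ratio scaling, with the elongation factor Tufm at 0.89. In chow-fed mice RIC gave 0 calls in each of these nuclear lists by limma, beside 1.18% of all entries, and 1747 of all entries had an unadjusted p under 0.05.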

How the data were processed

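Liver RNA-seq of 19 samples was analysed in the 4 groups of the sample titles. Per the labels' protocols, Trizol was used for extraction and a VAHTS kit for the libraries. Per the submitters' processing notes, which give no roles, the build mm10 and the tools HTSeq 0.13.5, HISAT2 2.2.1, DESeq2 1.18.1, FastQC 0.11.9, R 3.4.1 and Trimmomatic 0.38 were used. Values are the FPKM, scaled for length and depth, as the authors deposited them, in a single table. Its 3225 entries without a gene name (0.123% to 0.204% of FPKM) were left out.

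Values were taken as log2(FPKM + 1), which understates changes of low entries, and tested with limma 3.58.1 in R 4.3.3, eBayes with a trend, a mean for each of the 4 groups and 15 residual degrees of freedom, with two-sided p and Benjamini-Hochberg adjustment over the 10577 entries with a mean of at least 1 FPKM. The fit was tested on simulated data. Depth was estimated from single-exon genes. In the most alike pair of samples 0.00945% of tested entries had equal values. Positions and copies came from GENCODE transcripts of mm10 by alignment. Tables and plots used python 3.11.15, pandas 2.3.3, numpy 2.4.6 and matplotlib 3.10.9.

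All mitochondrial entries may be named; from each nuclear list and comparison up to 4 called genes with the smallest p, and all transcription factors, were eligible, and those printed were chosen among them. The members and lists were chosen with earlier results of these data known. Alternatives covered pseudocounts, filters, scalings, models and left-out samples.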

Additional observations from a re-analysis of the deposited data

Results flagged for a closer look

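In 11 of 172 groups of 4 or 5 samples, 1 sample lay far from the others by Dixon's test, which chance gives in about 1 in 20 groups. CDAHFD RIC sample 1 was high for mt-Rnr2 (389.9 FPKM), mt-Tq (48.1), mt-Tm (199) and mt-Ta (176). CDAHFD RIC sample 2 was low for mt-Atp6 (8181), and sample 4 high for mt-Ts1 (15.2). NC sham sample 4 was high for mt-Nd2 (11388) and NC sham sample 1 for mt-Tt (17.9). mt-Ts2 stood at 164 FPKM in NC sham 4, 149 in CDAHFD sham 3 and 103 in CDAHFD RIC 2.

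The RIC difference itself differed between the diets by the interaction test in limma for mt-Nd1 (-0.67, from 0.42 on chow to -0.25 on CDAHFD), mt-Ti (-1.49), mt-Nd2 (-0.48), mt-Co2 (-0.53) and mt-Nd3 (-0.58). The cause was not tested.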

How the results depend on the processing

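Counts of called entries for CDAHFD against chow stayed within 1.5 times of 25 in sham mice (22 to 30 leaving out 1 sample) and of 29 in RIC mice (26 to 31). For RIC on CDAHFD the 14 became 6 with no filter, 5 with median-ratio scaling, 6 with only the groups compared and 7 to 17 without 1 sample. For RIC on chow the 1 became 0 with no filter, 2 with quantile normalization and 0 to 1 without 1 sample. For the interaction the 5 became 0 with no filter, 1 with median-ratio scaling, 10 without CDAHFD sham 2 and 5 and 1 to 8 without 1 sample. The median mRNA difference moved to -0.85 with median-ratio scaling for diet in sham mice; to -0.13 and -0.0050 with median-ratio and quantile scaling and -0.38 without CDAHFD sham 2 and 5 for RIC on CDAHFD; to 0.043 with quantile scaling for RIC on chow; to -0.35 and -0.41 with common sums (all entries, or without mitochondrial ones), -1.18 with median-ratio and -0.036 with quantile scaling for diet in RIC mice; and to -0.14 with a common sum and -0.0026 with quantile scaling for the interaction. Among entries that passed as reported or in the alternative, signs turned for mt-Nd1 (-0.21) and mt-Co2 (-0.37) on diet in sham mice with median-ratio scaling, for mt-Cytb (0.039) on RIC on CDAHFD, and for mt-Nd1 (0.25), mt-Co2 (0.22), mt-Atp8 (0.14) and mt-Nd6 (0.077) on diet in RIC mice with quantile scaling. Entries that passed in neither also changed sign. The cause was not tested. The class shares of FPKM moved by less than the spread between replicates in the alternatives run. Replicate numbers did not pair the samples (correlations of -0.174 to 0.176); with the replicate block the counts were 27, 16, 1 and 32 for diet in sham mice, RIC on CDAHFD, RIC on chow and diet in RIC mice, and 6 for the interaction.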
